A study of Oryza sativa Japonica Group with 5 samples.

Results

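The leaf transcriptomes of the rice mutant pls4 and of wild type rice list 36475 loci, of which 35667 carry Rice Annotation Project identifiers (Os loci) and the remaining 2.22% carry no gene identifier. These remaining loci, the subject here, were taken by an identifier that starts with XLOC_, and no measured value entered that choice; 498 of them passed the filter for testing described further on and 310 did not. RNA came from leaves of Oryza sativa Japonica Group, 2 libraries of pls4 and 3 of wild type (WT). The labels mark pls4 as "knockdown" and WT as "Non knockdown", name mesophyll as the cell type, and give no altered gene, leaf age, growth condition or inoculation. The series names sheath blight, a fungal disease of rice, as the trait of interest. Nothing in the labels says that the libraries of a genotype came from separate plants, so a p-value here speaks of the spread among these particular libraries, part of which may be technical. Values are FPKM, fragments scaled by locus length and by sequencing depth; read totals were not given in the sources used here.

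In the Cufflinks family of programs, XLOC_ is the usual prefix of a locus assembled from reads instead of taken from an annotation. Whether such a program was run here, and on which reads, was not given in the sources used here. In plants, transcribed loci outside an annotation are known to include long noncoding RNAs, transcripts of transposable elements, small coding genes that a reference misses, and detached ends of annotated genes. They also include genes that some varieties carry and the sequenced reference does not. The deposited files give no position, strand, length or sequence for the XLOC loci, so none can be assigned to any of these kinds and no sequence is shown.

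The XLOC loci were mostly low in level. Their median level, the mean of the pls4 mean and the WT mean, was 1.11 FPKM, with a 5th percentile of 0.184 and a 95th of 16.5 FPKM. The Os loci had a close median of 1.23 FPKM and a far wider range, with a 5th percentile of 0 and a 95th of 63.2 FPKM. A level of at least 20 FPKM was reached by 33 XLOC loci, 4.08% of them, compared with 15.9% of Os loci. At the low end a single XLOC locus, XLOC_022958, was listed at 0 in all 5 libraries, whereas 6808 Os loci, 19.1%, were. A locus assembled from these same reads could hardly be at 0 in all of them, so zeros of XLOC and Os loci are not counted on like terms; whether the XLOC loci were so defined is unknown, and its part in these shares, and in those of zeros in 1 genotype, was not tested. XLOC loci together held 0.497% and 0.472% of all FPKM in the pls4 libraries, against 0.478%, 0.462% and 0.449% in the WT libraries. The 6 most abundant XLOC loci made up 23.7% of the summed XLOC level.

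At FPKM 1, fewer XLOC loci were detected in pls4 than in WT; at FPKM 5 they were not. An FPKM of at least 1 was found for 376 and 386 XLOC loci in the pls4 libraries (46.5% and 47.8%), against 420, 413 and 412 in the WT libraries (52.0%, 51.1% and 51.0%). Both pls4 libraries lay below all 3 WT libraries, a difference of -4.21 percentage points between the genotype means. The share of Os loci at that level was 50.5% and 50.7% in pls4, against 50.8%, 50.7% and 50.6% in WT. At FPKM 0.5 the XLOC shares were 64.9% and 63.9% in pls4, against 70.2%, 67.7% and 68.3% in WT, again with both pls4 libraries below. At FPKM 5 they were 16.7% and 17.1% in pls4, against 17.0%, 15.6% and 15.6% in WT, where the groups overlapped and pls4 was the higher on average. XLOC loci listed at 0 numbered 115 and 122 in the pls4 libraries, against 82, 71 and 71 in the WT libraries, without overlap. Of the Os loci, 29.4% in each pls4 library and 27.3% to 28.8% of those in the WT libraries were listed at 0. With 2 against 3 libraries the exact permutation test (two-sided) cannot go below p = 0.1, which both XLOC shares reached (adjusted p = 0.25 over the 5 library-level values tested). Sequencing depth is unknown, and its part in these shares was not tested. In bulk libraries such as these, fewer cells of a type and less RNA per cell cannot be told apart.

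**Figure D1:**
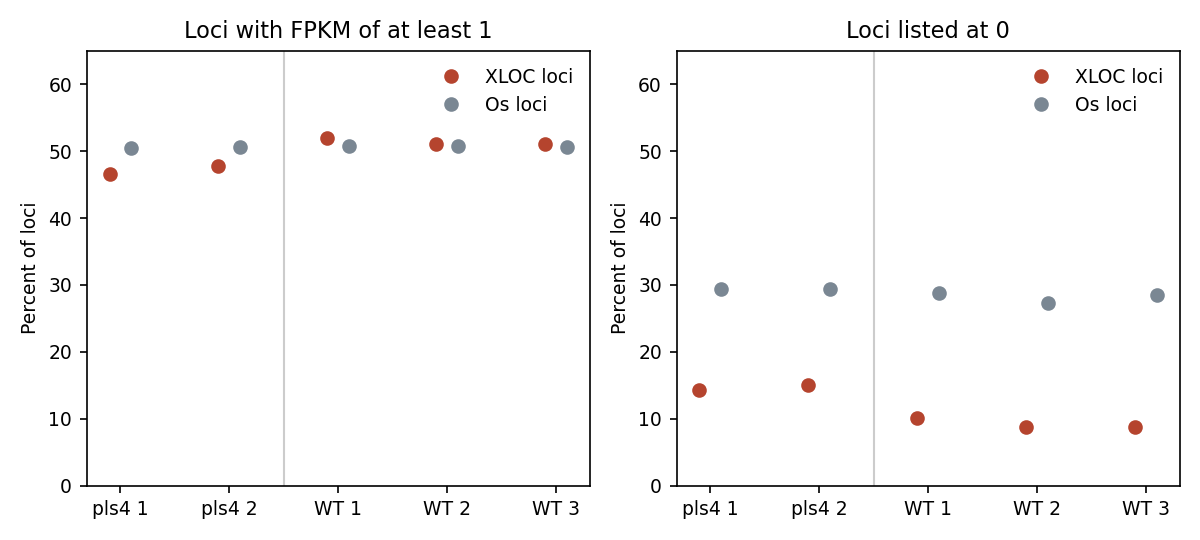
Share of loci per library with an FPKM of at least 1 (left) and listed at 0 (right), in percent, for all XLOC loci and the 35667 Os loci; each point is 1 library. XLOC detection sits at 46.5% and 47.8% in the pls4 libraries, below the 51.0% to 52.0% of the WT libraries, while the Os points stay between 50.5% and 50.8%.

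Detection of XLOC loci was shared between libraries of a genotype to a greater extent than between genotypes. Of loci at FPKM 1 in either library of a pair, 81.0% were at FPKM 1 in both pls4 libraries, and 82.7% to 84.6% in both libraries of a WT pair. Between a pls4 and a WT library this share was 52.1% to 55.3% over the 6 pairs. For Os loci it was 95.02% within pls4, 94.4% to 95.2% within WT and 86.7% to 87.2% between genotypes. Spearman correlations over all XLOC loci, tested or not, were 0.941 between the pls4 libraries, 0.938 to 0.950 within WT and 0.377 to 0.391 between genotypes. Those of the Os loci were 0.978, 0.977 to 0.980 and 0.921 to 0.924. Both classes of locus come from the same libraries, and the XLOC levels span the narrower range. The part of that range in these correlations was not tested.

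Zeros were divided between the genotypes as well. Of the 101 XLOC loci listed at 0 in both pls4 libraries, 95 were above 0 in all 3 WT libraries. Of the 50 listed at 0 in all 3 WT libraries, 43 were above 0 in both pls4 libraries. Set against all members, these are 11.8% and 5.32% of XLOC loci, compared with 2.58% and 1.33% of Os loci. For an equal number of libraries, 101 loci were at 0 in the pls4 pair, against 61, 58 and 52 in the 3 WT pairs.

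**Figure D2:**
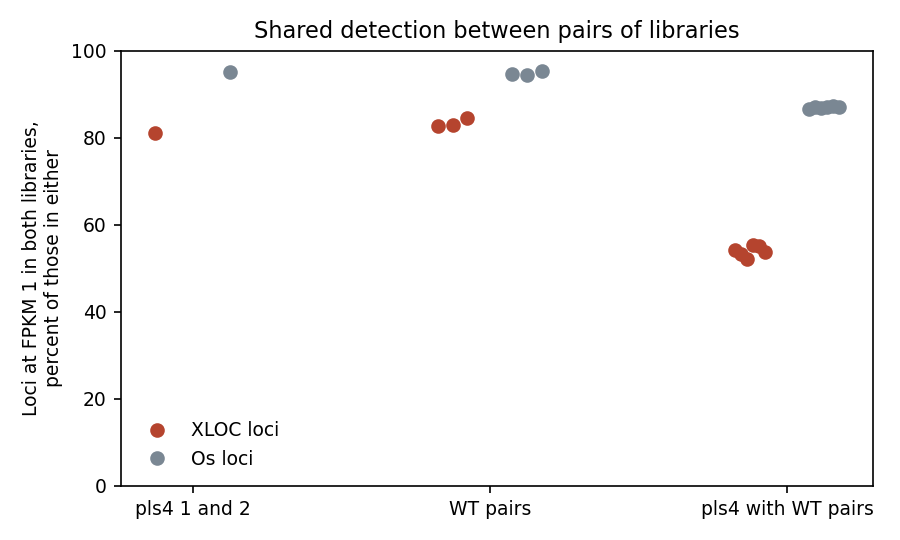
Loci at FPKM 1 or more in each library of a pair, as a percent of the loci reaching it in either, for the pls4 pair, the 3 WT pairs and the 6 pairs of a pls4 with a WT library. XLOC loci are at 52.1% to 55.3% between genotypes and 81.0% to 84.6% within them; Os loci stay above 86% throughout.

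Differences between genotypes were tested with limma on log2(FPKM + 1) over all 19637 loci that reached FPKM 1 in at least 2 libraries, with Benjamini-Hochberg adjustment over all of them. Among the 498 XLOC loci that passed, 63 reached FPKM 1 in pls4 libraries and in no WT library. Another 113 reached it in WT and in no pls4 library (668 and 1056 of the 19139 tested Os loci). Passing through 1 genotype favours a difference, though not all of these loci were called. Such a locus must reach FPKM 1 in both pls4 libraries, or in any 2 of the WT libraries, so the filter admits WT loci more easily. The part of this in the counts higher and lower in pls4 was not tested. The following counts thus describe the tested loci and not all members. At an adjusted p under 0.05, 114 XLOC loci were higher in pls4 (22.9% of the 498, with a background of 33.4% of all tested loci) and 155 were lower (31.1%, with a background of 18.5%). The tested XLOC loci had a median level of 2.18 FPKM, against 9.25 FPKM for tested Os loci. The share of Os loci called higher rose with level. Called higher at 20 FPKM and over were 42.4% of XLOC and 43.0% of Os loci. At 5 to 20 FPKM these shares were 23.5% and 34.5%, and under 1 FPKM 14.9% and 23.2%. At 1 to 5 FPKM, 66 of 293 XLOC and 1465 of 5860 Os loci were called higher. The part of level in the gap between 22.9% and 33.4% was not tested. Of the 322 XLOC loci that reached FPKM 1 in at least 1 library of each genotype, 54 were higher in pls4 (16.8%, background 33.1% of the 17737 such loci) and 56 lower (17.4%, background 14.8%); this restriction was chosen after seeing the data. The remaining 229 of the 498 were not called, of which 39 had an unadjusted p under 0.05. The called XLOC loci had no overlap between the values of the 2 genotypes; over the 498, groups did not overlap at 356 (71.5%, background 69.9%). The median difference, pls4 minus WT, was 0.00 for the XLOC loci and 0.15 for all tested loci. Scaling each library by its median ratio brought the median of all tested loci to 0.0019. With that scaling 101 XLOC loci were called higher and 173 lower. The shares of all tested loci called with that scaling are not given here, so these counts cannot be set beside the backgrounds above.

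Large differences among the XLOC loci lay mainly at loci that passed the filter through 1 genotype. A difference of at least 1 on the log2(FPKM + 1) scale together with the call was seen at 65 loci higher in pls4 (13.1%, background 7.11%) and at 93 lower in pls4 (18.7%, background 7.21%). Among the 322 loci at FPKM 1 in both genotypes these counts were 18 (5.59%, background 5.38%) and 16 (4.97%, background 3.6%). Of the full counts, 24 of the 65 were listed at 0 in all WT libraries and 51 of the 93 were listed at 0 in both pls4 libraries. Without pls4 replicate 1 the count higher in pls4 was 47, and without replicate 2 it was 42 (20 and 18 with a difference of at least 1), since a locus at FPKM 1 in pls4 alone then has 1 library left and cannot pass the filter. With the same 498 loci tested, the counts were 104 and 98 (68 and 66). No background over all tested loci is given for the counts without a library. Over all XLOC loci, with no filter, the genotypes did not overlap at 247 with pls4 above (30.6%, background 29.4%) and at 286 with pls4 below (35.4%, background 17.1%). Of all loci in that background, 18.7% were listed at 0 in every library and cannot separate, against 0.124% of XLOC loci. The shares are therefore not on like terms.

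**Figure D3:**
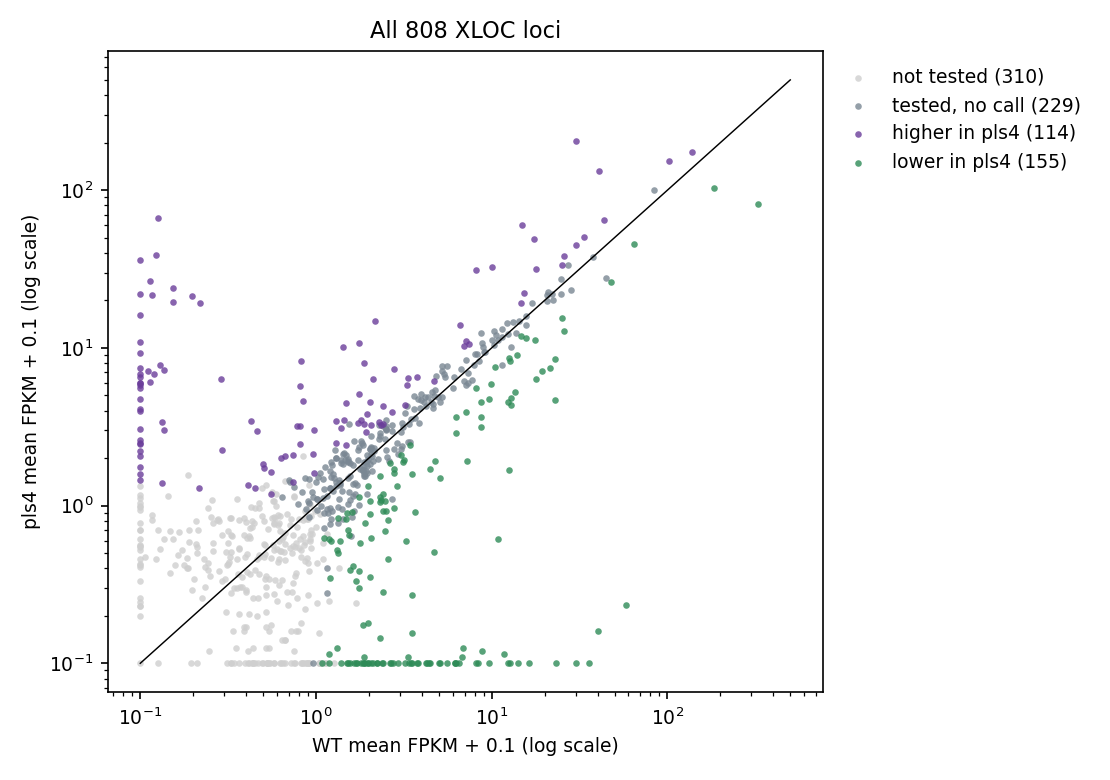
Mean FPKM in pls4 (vertical, 2 libraries) against mean FPKM in WT (horizontal, 3 libraries) for all XLOC loci, each plus 0.1 on log axes, coloured by call; the line marks equal means. The rows of points along the left and lower edges are loci listed at 0 in WT or in pls4, 50 and 101 loci.

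The median difference between genotypes was larger for XLOC than for Os loci over all tested loci. Once loci that passed through 1 genotype were left out, it was smaller for XLOC loci over pooled levels but larger in each band of level. Over the tested loci the median absolute difference between libraries of a genotype was 0.170 for XLOC and 0.148 for Os loci, while the median absolute difference between pls4 and WT was 0.498 and 0.353. At levels of 5 to 20 FPKM, with 98 XLOC and 6947 Os loci, the within-genotype medians were 0.151 and 0.143, and the medians between genotypes 0.516 and 0.315. These values include the loci that passed through 1 genotype, over all levels 35.3% of the tested XLOC loci and 9.01% of the tested Os loci. At 20 FPKM and over, with 33 XLOC and 5660 Os loci, they were 0.123 and 0.125 within a genotype, and 0.568 and 0.385 between. At 1 to 5 FPKM the within-genotype medians were 0.176 and 0.184 and those between genotypes 0.418 and 0.348. Under 1 FPKM, with 74 XLOC and 672 Os loci, they were 0.230 and 0.198 within a genotype, and 0.722 and 0.628 between. Over loci at FPKM 1 in both genotypes, 322 XLOC and 17415 Os, the median between genotypes was 0.297 for XLOC and 0.319 for Os loci, and the median within a genotype 0.184 and 0.148. By level, the medians between genotypes of these loci were 0.133 and 0.117 under 1 FPKM (15 XLOC loci), 0.282 and 0.273 at 1 to 5 FPKM (199), 0.390 and 0.305 at 5 to 20 FPKM (78), and 0.554 and 0.382 at 20 FPKM and over (30). The class that had the higher median thus differed between the pooled loci and the bands, and neither difference was tested.

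**Figure D4:**
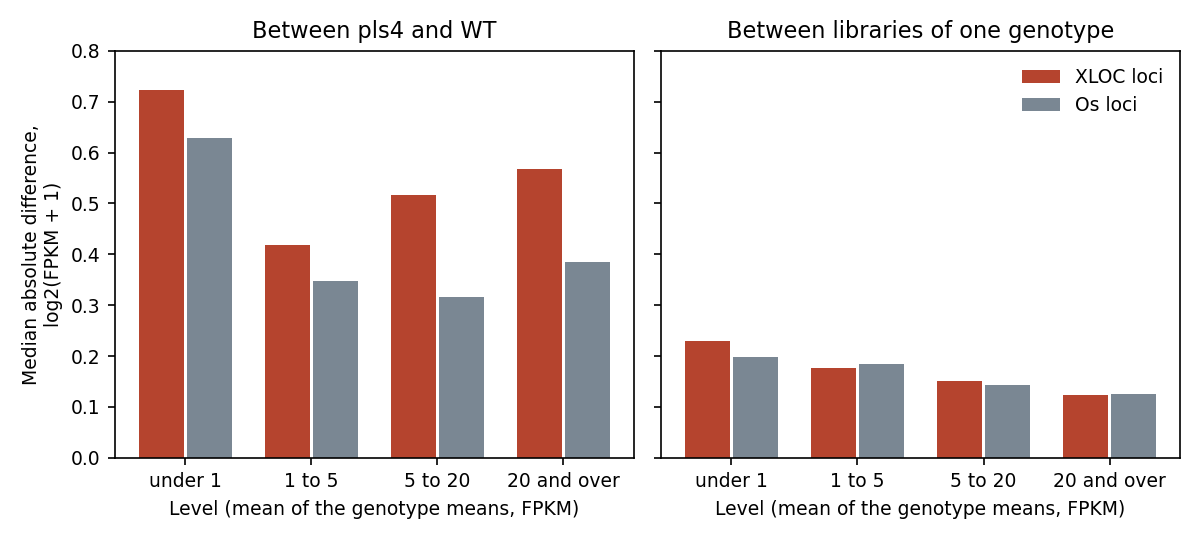
Median absolute difference on the log2(FPKM + 1) scale between pls4 and WT (left) and between libraries of a genotype (right), over tested XLOC and Os loci in 4 bands of level. At 5 to 20 FPKM the medians are 0.516 for XLOC and 0.315 for Os loci on the left, where loci that passed the filter through 1 genotype are included, and 0.151 and 0.143 on the right.

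The XLOC loci with the largest rise in pls4 were at or near 0 in WT. XLOC_005300 had 70.6 and 63.0 FPKM in the pls4 libraries, against listed values of 0, 0 and 0.08 FPKM in the WT libraries. XLOC_019701 had 39.1 and 38.5 FPKM in pls4, against 0, 0.03 and 0.04 FPKM in WT, and XLOC_036739 had 36.8 and 35.6 FPKM in pls4, against listed values of 0 in all 3 WT libraries. At these 3 loci no WT value exceeded 0.08 FPKM, while every pls4 value was at 35.6 FPKM or more. XLOC_017271 stood at 28.4 and 24.5 FPKM in pls4, against 0, 0 and 0.04 FPKM in WT. XLOC_028704 stood at 25.4 and 22.3 FPKM in pls4, against 0.05, 0 and 0.11 FPKM in WT. XLOC_004448 (22.7 and 20.7 FPKM in pls4) was listed at 0 in all WT libraries, and XLOC_027351 (24.2 and 18.9 FPKM in pls4) at 0, 0 and 0.05 FPKM. XLOC_007465 was the one of these 8 above 0 in all WT libraries, with 22.4 and 19.8 FPKM in pls4, against 0.04, 0.06 and 0.19 FPKM in WT (difference 4.33 ± 0.12, SE, on the log2(FPKM + 1) scale). These 8 were picked by size among called loci without overlap, and each reached FPKM 1 in pls4 alone. Their separation and their adjusted p-values of 7.91e-08 to 5.67e-07 (limma) follow from that choice and add no support.

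The largest falls were of the same kind, with steady values in WT and next to nothing in pls4. XLOC_024596 had 0.16 and 0.11 FPKM in the pls4 libraries, against 57.5, 60.3 and 55.4 FPKM in the WT libraries (difference -5.69 ± 0.09). XLOC_003020 had 0.04 and 0.08 FPKM in pls4, against 39.6, 41.4 and 39.2 FPKM in WT (-5.28 ± 0.09). Each of the next 6 was listed at 0 in both pls4 libraries. In WT, XLOC_036101 had 38.8, 34.0 and 34.5 FPKM, XLOC_017780 had 33.3, 30.2 and 27.3 FPKM, and XLOC_025083 had 21.4, 26.1 and 22.0 FPKM. XLOC_003574 followed with 16.5, 14.9 and 16.9 FPKM in WT, XLOC_028026 with 14.9, 14.2 and 12.7 FPKM, and XLOC_008733 with 12.6, 12.7 and 12.4 FPKM. Both pls4 libraries lay below all 3 WT libraries at each of the 8. These loci too were picked by size among called loci without overlap, and each passed the filter through WT alone. Their separation and their adjusted p-values of 4.84e-08 to 4.38e-07 (limma) follow from that choice and add no support.

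**Figure D5:**
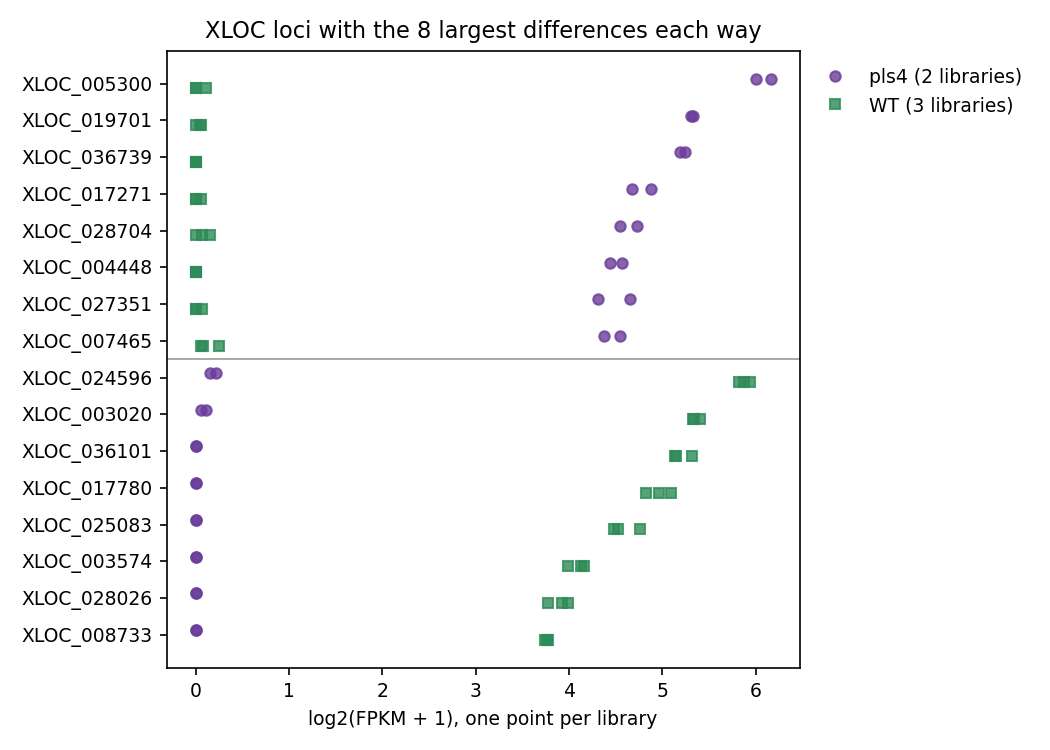
FPKM of each library on the log2(FPKM + 1) scale for the 8 XLOC loci with the largest rise in pls4 (upper rows) and the 8 with the largest fall (lower rows); circles are the 2 pls4 libraries and squares the 3 WT libraries. The groups stand far apart in each row, and libraries of a genotype lie close together, as in XLOC_036739 with 36.8 and 35.6 FPKM in pls4 and 0 in WT.

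With presence taken as a mean of at least 5 FPKM and absence as at most 0.1 FPKM in each library of the other genotype, 21 XLOC loci were listed in pls4 alone (2.6%, background 0.217% of all loci) and 20 in wild type alone (2.48%, background 0.661%). The 21 ranged from 5.07 to 70.6 FPKM over the pls4 libraries, with a median of 8 FPKM. Their WT values reached 0.09 FPKM at most, and 12 of the 21 were listed at 0 in all WT libraries. Traces above 0 were seen at none of the 21 in WT replicate 1, at 3 in replicate 2 and at 8 in replicate 3. The 20 listed in wild type alone ranged from 4.82 to 41.4 FPKM over the WT libraries, with a median of 9.34 FPKM, and 15 of them were listed at 0 in both pls4 libraries. Among loci with a mean of at least 5 FPKM in either genotype, XLOC loci were divided about evenly, 12.3% in pls4 alone and 11.7% in wild type alone, whereas Os loci were at 0.431% and 1.64%. With presence at 2 FPKM the XLOC counts were 31 and 43, and with presence at 10 FPKM they were 9 and 9.

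The 6 most abundant XLOC loci were expressed in both genotypes. The highest, XLOC_029040, fell to 79.2 and 84.9 FPKM in pls4, against 352, 320 and 306 FPKM in WT (difference -1.98 ± 0.09, limma, adjusted p = 3.85e-06), and was 3.97-fold lower in pls4 by the ratio of means. XLOC_027005 rose most among the 6 most abundant, with 234 and 173 FPKM in pls4, against 22.1, 33.7 and 34.0 FPKM in WT (2.74 ± 0.21, adjusted p = 5.58e-05, limma). Its level differed between the pls4 libraries more than those of the other 5 did, yet both lay far above the WT values. XLOC_005444 had 111 and 94.8 FPKM in pls4, against 193, 178 and 182 FPKM in WT (-0.84 ± 0.09). XLOC_010315 had 152 and 155 FPKM in pls4, against 110, 92.3 and 103 FPKM in WT (0.59 ± 0.09). XLOC_010665 stood at 174 and 175 FPKM in pls4, against 141, 136 and 135 FPKM in WT (0.34 ± 0.07, limma, adjusted p = 0.00666); this call was lost under median ratio scaling (0.17) and with the replicate number as a block (0.33).

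Some abundant XLOC loci were not called. XLOC_032677 had 39.6 and 35.8 FPKM in pls4, against 36.4, 40.5 and 35.9 FPKM in WT (difference 0.00 ± 0.09, limma, adjusted p = 0.976), with fully mixed values. XLOC_001546 had 98.6 and 102 FPKM in pls4, against 95.2, 75.9 and 81.0 FPKM in WT; the groups did not overlap, but the difference of 0.26 ± 0.11 missed the threshold (adjusted p = 0.0807, limma), and without WT replicate 1 it was 0.35 and called. XLOC_021818 had 30.8 and 24.4 FPKM in pls4, against 29.6, 50.0 and 54.3 FPKM in WT, where replicate 1 stood with the pls4 libraries. Its difference of -0.64 ± 0.25 (limma, adjusted p = 0.0664) became -0.90 and was called without that library, and -0.79 and called after quantile normalization. XLOC_012167 had 40.0 and 26.7 FPKM in pls4, against 29.3, 28.0 and 24.0 FPKM in WT (0.27 ± 0.17, adjusted p = 0.229, limma); it was -0.02 without pls4 replicate 1, and 0.55 and called without pls4 replicate 2.

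A few calls rested on uneven libraries. XLOC_006516, the called locus with the largest within-genotype difference (0.938), had 4.96 and 9.84 FPKM in pls4, against 33.3, 11.6 and 19.1 FPKM in WT (difference -1.36 ± 0.42, limma, adjusted p = 0.0298). That call was lost without pls4 replicate 1 (-0.92), without WT replicate 1 (-0.99) or 3 (-1.37), and with no filter. XLOC_033304 had 0.43 and 0.14 FPKM in pls4, against 2.84, 0.91 and 1.21 FPKM in WT. Its call (limma, -0.99 ± 0.29, adjusted p = 0.0263) was lost without pls4 replicate 2, after quantile normalization and with no filter. Without WT replicate 1 or 3 this locus no longer passed the filter. XLOC_027206 and XLOC_027003 were listed at 0 in both pls4 libraries, against 5.55, 2.15 and 2.21 FPKM and 5.37, 2.15 and 4.81 FPKM in the WT libraries. Their WT values varied more than 2-fold, but none came near 0.

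The identifiers run from number 71 to number 36811, so that the XLOC loci listed take 2.19% of that range, and 106 of them form 57 pairs with consecutive numbers. In programs that number loci along the genome such pairs would be neighbours; whether that holds here was not tested. Both members were tested in 24 of the 57 pairs and called in 6, in the same direction in 4 and in opposite directions in 2; of the 498 tested XLOC loci, 114 and 155 were called in the 2 directions, and nothing is read from the pairs' counts. The pairs named here were singled out after their values were seen. XLOC_005874 had 51.5 and 46.8 FPKM in pls4, against 21.7, 14.7 and 15.5 FPKM in WT, and XLOC_005875 had 33.8 and 31.5 FPKM in pls4, against 11.7, 9.74 and 8.27 FPKM in WT. This pair rose by similar amounts, 1.48 ± 0.16 and 1.64 ± 0.14. XLOC_036741 had 1.87 and 1.29 FPKM in pls4, against 12.9, 13.8 and 10.9 FPKM in WT, whereas XLOC_036742 had 144 and 119 FPKM in pls4, against 40.4, 41.7 and 40.0 FPKM in WT. They changed in opposite directions, by -2.39 ± 0.15 and 1.66 ± 0.10. In 6 pairs both members were listed at 0 in both pls4 libraries, among them XLOC_008732 with XLOC_008733 and XLOC_000200 with XLOC_000201, and in 1 pair, XLOC_027644 with XLOC_027645, both were listed at 0 in all WT libraries.

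The 310 XLOC loci under the filter were weak, with a median of 0.775 FPKM for their highest library and 3.58 FPKM as the highest value of any, that of XLOC_013317 in WT replicate 1. XLOC_013317 (chosen after its values were seen) had 0.28 and 0 FPKM in pls4, against 3.58, 0.33 and 0.87 FPKM in WT, so that 1 library set it apart. Of all XLOC loci, 233 reached FPKM 1 in no library (28.8%, against 44.2% of Os loci) and 77 in exactly 1. When all 36475 loci were tested with no filter, 32 of the 310 were higher in pls4 and 32 lower. With all members included, 126 XLOC loci were higher (15.6%, background 14.1%) and 152 lower (18.8%, background 8.49%). Here too the background includes the 18.7% of loci listed at 0 in every library, which cannot be called, against 0.124% of XLOC loci.

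The labelled tissue was checked with marker genes whose symbols were paired with Os identifiers from the rice literature and not checked here. The leaf genes RBCS2, Lhcb1 and Lhcb4, which encode Rubisco and antenna proteins, summed to 12080 to 14739 FPKM in pls4, against 24504 to 31594 FPKM in WT, and all 3 were called lower. The 3 secondary wall cellulose synthases CESA4, CESA7 and CESA9, markers of vascular tissue, summed to 9.20 to 18.97 FPKM in pls4, against 1.77 to 3.07 FPKM in WT, and all 3 were called higher. Of 3 markers of dividing cells, 1 was called higher and 1 lower, with sums of 28.4 to 28.6 FPKM in pls4 and 24.1 to 25.4 FPKM in WT. The root transporter LSI1 was called higher (16.6 and 20.1 FPKM in pls4, against 14.6, 11.4 and 14.4 FPKM in WT), and the seed storage gene GLUA2 was not called (3.89 and 4.79 FPKM, against 3.6, 4.88 and 4.44 FPKM). No marker was listed at 0 in any library. The part of leaf composition in the XLOC differences was not tested.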

How the data were processed

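Leaf RNA was measured in 2 pls4 and 3 WT libraries, grouped by their titles. The deposited values are FPKM per locus, per the file headers, under file names that say RPKM. The tool TopHat2 2.1.1 and the genome build IRGSP-1.0 are named in the submitters' processing notes. The counting tool, the filters, the lengths and the source of the XLOC loci were not given in the sources used here. No counts or totals accompany the values, so depth and counting error are unknown. FPKM summed to 736527 to 758853 per library, and at FPKM 5 or more at most 0.276% of values were equal between any pair of libraries.

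Values were analysed as log2(FPKM + 1), which understates differences of weak loci, with limma 3.58.1 in R 4.3.3 (variance trend, genotype as the sole term, Benjamini-Hochberg adjustment, threshold 0.05) over loci at FPKM 1 or more in at least 2 libraries. ± beside a difference is its SE. Summaries were made in Python 3.11.15.

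Loci named are the 8 called without overlap with the largest difference each way, the 6 of highest level, the 4 of highest level without a call and the 4 called with the largest within-genotype difference; others are marked as chosen after their values were seen. The members, lists and rules were chosen with earlier results of these data known. Alternatives were other pseudocounts, filters and scalings, no trend, a replicate block and leaving out each library.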

Additional observations from a re-analysis of the deposited data

How the results depend on the processing

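At a filter of FPKM 5 in at least 2 libraries, 172 XLOC loci were tested, with 57 higher and 56 lower in pls4, of which 39 and 36 differed by at least 1; fewer loci enter. With a pseudocount of 5, 36 and 29 differed by at least 1. Median ratio scaling gave 101 higher and 173 lower, and 101 and 155 of the original calls were kept. Leaving out 1 library gave 42 to 121 higher and 133 to 148 lower (18 to 68 and 91 to 98 with a difference of at least 1). With the tested loci held fixed, an alternative chosen after seeing the data, 89 higher and 118 lower calls were kept without any single library. Among loci at FPKM 1 in both genotypes, also chosen after seeing the data, 54 were higher and 56 lower (18 and 16 with a difference of at least 1), with medians of 0.297 between and 0.184 within genotypes. With the replicate block, 102 were higher and 141 lower. Except for loci at FPKM 1 in both genotypes, no background over all tested loci is given for the calls under these alternatives. Those counts therefore cannot be set beside the backgrounds of the main fit. The numbers were not shown to pair libraries: deviations correlated at -0.09 for number 1 and -0.14 for number 2.

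The median absolute difference was 0.719 and 0.223 with pseudocounts of 0.1 and 5, 0.395 with no filter, 0.702 at the filter of 5, 0.451 after quantile normalization and 0.444 to 0.524 without a library. The within-genotype median was 0.261 and 0.0826 with those pseudocounts, 0.137 at the filter of 5 and 0.163 to 0.180 without a library. Listed in pls4 alone were 9 loci with presence at FPKM 10 and 21 to 24 without a library; listed in wild type alone were 43 and 9 with presence at 2 and 10, and 20 to 22 without a library. The detected share was 63.9% to 70.2% at FPKM 0.5, 15.6% to 17.1% at FPKM 5, where it was no longer lower in pls4, and 45.0% to 53.0% with median ratio scaling.

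Of 356 alternative values of the 29 named loci, 336 kept direction and side of the threshold. The 7 that turned sign belong to uncalled loci: XLOC_032677 was -0.17 with median ratio scaling, -0.16 after quantile normalization, -0.028 with the block and -0.066 to 0.074 without a library, and XLOC_012167 was -0.018 without pls4 replicate 1 and up to 0.551 without another library. Loci at FPKM 1 in pls4 alone could not be tested without a pls4 library unless tested loci were held fixed. Depth is unknown, so a listed 0 does not show absence.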
